A study of Mus musculus with 11 samples.

Results

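The comparison described here sets mouse embryonic stem cells in which CTCF carrying the H373R substitution had been reintroduced against cells of the same line in which FL CTCF had been reintroduced. It comprised 6 of the 11 libraries analysed, 3 from H373R cells and 3 from FL cells, chosen by their labels, and every expressed gene was examined. All cells were EN52.9.1 (CTCF-AID), whose own CTCF protein carries a degron, and both groups were treated with 500 µM of the auxin analogue indole-3-acetic acid sodium salt (IAA), which triggers degradation of the tagged protein. In their titles the H373R libraries are called ZF4, the name of a zinc finger, whereas their genotype label gives H373R. Where levels in other cells help to place a value, they come from 3 EV libraries without auxin (EV untreated) and 2 EV libraries with auxin (EV auxin), which are labelled as untreated wild type and as depleted of endogenous CTCF. The labels do not say how the reintroduced sequences were driven, at what protein level they were present or whether each line was a single clone. They also do not say whether the 3 libraries of a group came from separate cultures, so p-values measure the spread between these libraries, which may be technical.

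CTCF is a DNA-binding protein with a row of zinc fingers of the C2H2 type, in which histidines hold the zinc ion, so that replacing such a histidine is a common way to disable a finger. Bound to its motif, CTCF stops cohesin as it extrudes chromatin loops and in this way separates enhancers from promoters or brings them together. Well known examples of genes under such control are the clustered protocadherins and the imprinted H19 and Igf2 pair. Embryonic stem cells express pluripotency genes and can spontaneously turn on genes of the primitive endoderm, a lineage whose entry depends on FGF and ERK signalling.

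The total count per library was 13465241 to 21037863 in FL and 21041759 to 25427745 in H373R. Across genes, Pearson's r on log2 values was 0.9929 to 0.9943 between FL libraries, 0.9956 to 0.9958 between H373R libraries and 0.9905 to 0.9933 between libraries of different groups, and a chi-square test of the counts found more than sampling noise between every pair of libraries of a group (2.08 to 4.69 per degree of freedom). These r are across genes, which are not independent. Markers of embryonic stem cells were abundant throughout: Pou5f1, Sox2, Nanog, Esrrb and Klf4 stood at 420 to 1070 CPM (counts scaled to the library's total and between libraries by TMM) in the FL libraries and at 435 to 999 CPM in the H373R libraries, and none of them was called. Ctcf itself had 328, 333 and 350 CPM in FL and 330, 326 and 306 CPM in H373R (edgeR adjusted p 0.535). Reads of the cell's own and of the reintroduced Ctcf cannot be told apart in this table, so the transcript does not check the labels.

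Of 16420 genes tested, 979 (5.96%) differed between H373R and FL at an adjusted p under 0.05 from edgeR (quasi-likelihood test, Benjamini-Hochberg adjustment over all genes), which is what "called" means below. Higher in H373R were 516 (3.14%) and lower 463 (2.82%). The 3 values of H373R and the 3 of FL did not overlap for 4730 genes (28.8%), among them 978 of the 979. Most differences were modest. For 72.9% of the called genes the fold was under 1.5, their log2 fold changes had a median size of 0.399, and 78 genes differed at least 2-fold, 28 of them higher and 50 lower in H373R. When TPM were tested with limma in place of counts, 849 genes were called and 65% of them were higher in H373R, against 52.7% on counts. The number of calls also depended on single libraries. It was 510 when H373R replicate 3 was left out and 2323 when EV untreated replicate 1 was, a library outside the comparison that enters the shared estimate of spread. Every gene given below with an adjusted p stayed under 0.05 when each of the 11 libraries was left out in turn, unless the text says otherwise.

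**Figure D1:**
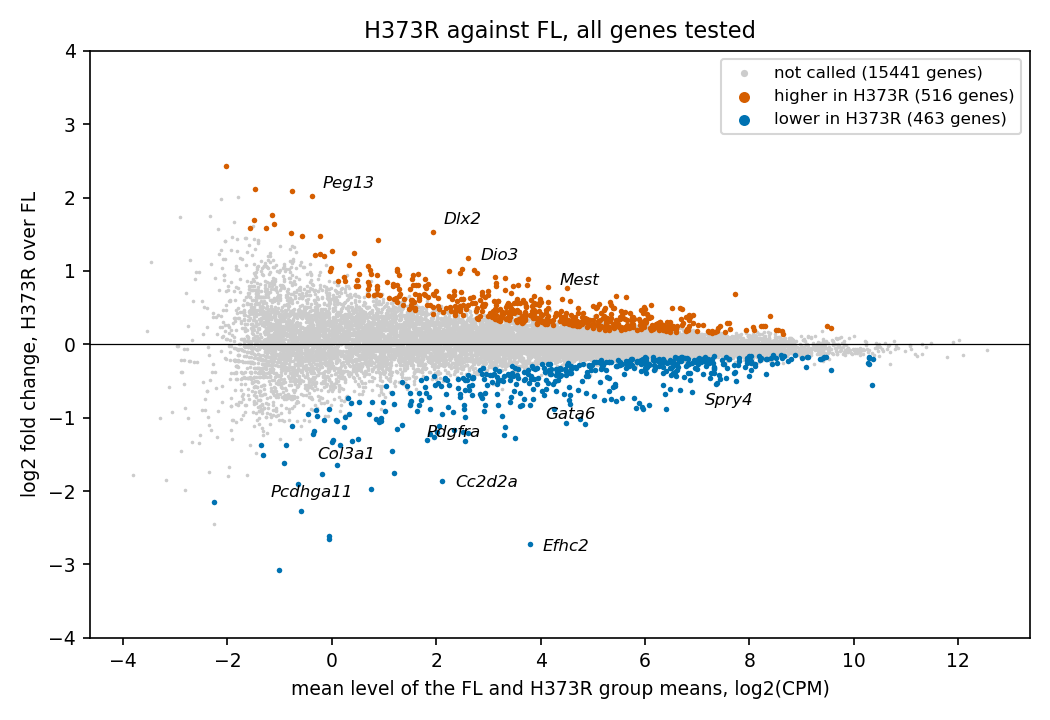
Log2 fold change of H373R over FL (vertical axis) against the mean level of both groups as log2 CPM (horizontal axis), 1 point per gene. Called genes are orange (516 higher) or blue (463 lower) and the rest grey. Labelled genes are described in the text, among them Efhc2 at -2.73 and Peg13 at 2.02.

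The largest falls among genes with a mean of at least 1 on the log2 CPM scale spanned 2.28-fold to 6.63-fold. Efhc2, on the X chromosome (chrX:17132049-17319368, GRCm38, minus strand), had 22.9, 23.5 and 26.3 CPM in FL and 3.74, 3.91 and 3.35 CPM in H373R. Both EV groups, at 8.09 to 11.8 CPM, lay between these values, so that FL was above and H373R below every EV library. On the log2 scale H373R was -2.73 ± 0.13 (SE) from FL, at an edgeR adjusted p of 2.94e-08.

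The other large falls had another order of levels. Cc2d2a, which encodes a protein of the transition zone of primary cilia, had 6.87, 7.21 and 6.32 CPM in FL and 1.85, 2.08 and 1.69 CPM in H373R, with 32.3 to 35.3 CPM in EV untreated and 2.40 and 3.40 CPM in EV auxin. The FL libraries therefore stood well below the untreated cells and still above H373R, whose log2 fold change against FL was -1.86 ± 0.14 (SE, edgeR adjusted p 9.04e-07). Dph7, an enzyme of diphthamide synthesis, had 16.1, 15.6 and 16.6 CPM in FL and 6.50, 6.41 and 6.96 CPM in H373R (-1.28 ± 0.079, SE, edgeR adjusted p 3.23e-07). Traf6, a ubiquitin ligase of immune receptor signalling, had 12.9, 13.9 and 14.5 CPM in FL and 5.85, 6.37 and 5.42 CPM in H373R (-1.23 ± 0.099, SE, edgeR adjusted p 2.43e-06). EV auxin libraries had 5.87 and 6.31 CPM of Traf6, within the span of H373R, and EV untreated libraries 27.1 to 31.4 CPM.

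In 9 of the 12 largest falls (Cc2d2a, Hddc3, Zfp398, Ndufaf3, Dph7, Comtd1, Traf6, B3glct and Tspan6) every EV untreated library was above every FL library. In Efhc2 and Col3a1 every EV untreated library was below every FL library, and Ceacam1, a cell adhesion molecule, overlapped. All 12 were called between FL and EV auxin, and 3 of the 12 (Efhc2, Cc2d2a and Dph7) between H373R and EV auxin. The 12 were chosen by their FL and H373R values, which enter these comparisons too. The outcome was thus partly set in advance, and the shares of all genes called in these comparisons are not reported here. Exons of Hddc3, Ndufaf3 and Comtd1 overlap those of a tested gene on the opposite strand, and whether reads were counted by strand is not given in the sources used here, so their values are less certain. Further falls at higher levels, chosen after their values were seen, were Ocrl, a phosphoinositide phosphatase, with 38.0, 40.6 and 39.3 CPM in FL against 17.9, 20 and 17.8 CPM in H373R (-1.08 ± 0.078, SE), and Ttc5, a p53 cofactor, with 30.3, 30.2 and 30.2 against 14, 14.6 and 14.4 CPM (-1.08 ± 0.071, SE).

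Among genes of the same minimum level, a mean of 1 on the log2 CPM scale, the 12 largest rises spanned 1.92-fold to 2.89-fold. Dlx2, a homeobox transcription factor of the forebrain and the branchial arches, had 1.72, 2.28 and 1.99 CPM in FL and 5.98, 5.09 and 5.85 CPM in H373R, with 0.734 to 0.866 CPM in EV untreated and 3.88 and 4.28 CPM in EV auxin. The H373R level thus exceeded that of every other library. Its neighbour Dlx1 on the opposite strand (chr2:71528113-71533981, with Dlx2 at chr2:71543408-71546754, GRCm38) was called higher too, from 0.286, 0.380 and 0.255 CPM in FL to 1.08, 0.708 and 0.808 CPM in H373R. These are 5 to 6 counts per FL library and 15 to 25 per H373R library, and the call of Dlx1 (log2 fold change 1.52 ± 0.33, SE, edgeR adjusted p 0.0117) was lost in 3 of the fits that left out a library, with a highest adjusted p of 0.0712 without FL replicate 3.

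Kif26b, a kinesin-like protein, had 4.34, 3.72 and 3.06 CPM in FL and 7.92, 7.78 and 7.15 CPM in H373R, close to the 8.38 and 8.47 CPM of EV auxin. Isoc2b, with 3.39, 3.42 and 2.75 CPM in FL and 6.07, 5.90 and 6.96 CPM in H373R, was likewise near EV auxin (6.33 and 6.23 CPM). Scnn1a, the alpha subunit of the epithelial sodium channel, had 4.06, 3.42 and 3.57 CPM in FL and 7.36, 7.08 and 7.50 CPM in H373R (log2 fold change 0.98 ± 0.12, SE, edgeR adjusted p 0.000132). Lgr6, a receptor for R-spondins, had 4.20, 5.01 and 4.79 CPM in FL and 9.68, 8.68 and 8.77 CPM in H373R (0.97 ± 0.12, SE, edgeR adjusted p 0.000155). The remaining genes of the 12 were Dio3 and H19, which are described with the imprinted genes, and Tcte1, Otud6a, Abca13, Krt79 and Trim29, with log2 fold changes of 1.03, 1.00, 0.96, 0.94 and 0.94. Tcte1 shares exon bases with a gene on the opposite strand. The rise with the smallest adjusted p, named after its value was seen, was AU018091, with 163, 164 and 160 CPM in FL and 259, 273 and 252 CPM in H373R (0.69 ± 0.045, SE, edgeR adjusted p 4.03e-07). Its EV auxin libraries had 265 and 269 CPM and its EV untreated libraries 157 to 166 CPM, so H373R overlapped EV auxin and FL overlapped EV untreated.

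**Figure D2:**
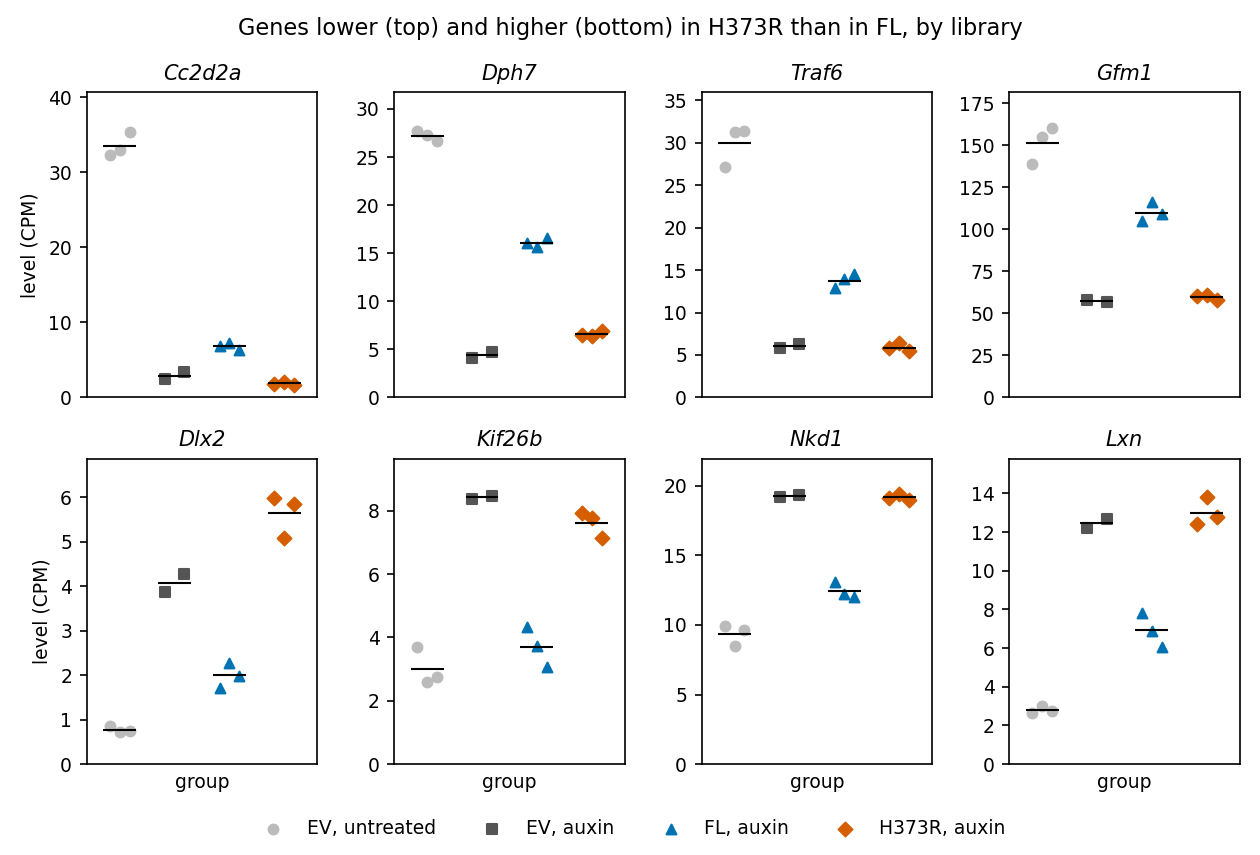
Level in CPM (vertical axis, from 0) of 4 genes lower in H373R (top row) and 4 genes higher in H373R (bottom row) in each library, by group, with a bar at the group mean. In every panel the 3 FL and the 3 H373R libraries lie apart; for Cc2d2a, Dph7, Traf6 and Gfm1 the EV untreated libraries lie above both.

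Genes of the primitive and visceral endoderm, the lineage that forms the yolk sac lining, gave falls and no rise. Of 32 tested members 10 were lower in H373R and 0 higher, a share of 31.2% beside 5.96% of all genes, and the median log2 fold change over all 32 was -0.367, beside 0.00245 over all genes tested. The transcription factor Gata6, a master regulator of this lineage, had 17.9, 18.5 and 17.9 CPM in FL and 10.2, 10.8 and 11.3 CPM in H373R. The EV libraries had only 4.19 to 4.69 CPM. H373R thus lay between FL and the EV libraries, and differed from FL by -0.74 ± 0.074 on the log2 scale (SE, edgeR adjusted p 2.31e-05). Gata4, its partner factor, had 17.8, 17.6 and 18.4 CPM in FL and 13.3, 12.9 and 13 CPM in H373R (-0.46 ± 0.081, SE, edgeR adjusted p 0.00321).

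The surface and uptake proteins of the lineage followed the same order. Pdgfra, the receptor that marks primitive endoderm cells, had 12.1, 13.4 and 12.7 CPM in FL and 7.40, 5.38 and 6.46 CPM in H373R, beside 2.91 to 4.13 CPM in the EV libraries (-0.98 ± 0.10, SE, edgeR adjusted p 4.4e-05). Cubn, an endocytic receptor of the visceral endoderm, had 64.4, 76.8 and 77.2 CPM in FL and 46.2, 36.8 and 36.9 CPM in H373R (-0.86 ± 0.11, SE, edgeR adjusted p 0.000256). Dab2, an adaptor of endocytosis, had 41.5, 49.0 and 50.1 CPM in FL and 29.3, 25.8 and 27.4 CPM in H373R (-0.77 ± 0.10, SE, edgeR adjusted p 0.000335). No H373R library reached the lowest FL library for any of the 3 genes. Lrp2, Klb, Srgn and Amot were called lower as well, with log2 fold changes of -0.55, -0.85, -0.61 and -0.46. Foxq1 (-0.55 ± 0.15, SE, edgeR adjusted p 0.0393) lost its call in 7 of the fits that left out a library, with a highest adjusted p of 0.217 without FL replicate 3.

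Not every member was called. Sox7 had 5.30, 5.16 and 4.95 CPM in FL and 4.26, 3.54 and 3.15 CPM in H373R, and Sox17 5.15, 4.48 and 4.69 against 3.79, 3.16 and 3.96 CPM, without overlap but with edgeR adjusted p of 0.0881 and 0.116. Apoe, an abundant apolipoprotein, had 376, 328 and 346 CPM in FL and 371, 343 and 385 CPM in H373R, and Ttr stayed under 1 CPM in all libraries. Summed over the 32 members the level was 1030 to 1060 CPM in FL, 882 to 950 CPM in H373R and 643 to 694 CPM in the EV libraries. In TPM, which divide by transcript length, the sums of FL (1070 to 1160) and H373R (1050 to 1140) overlapped, and those of the EV libraries were 714 to 846. No member was at 0 in all libraries of a group. In RNA from whole cultures, fewer cells of this lineage and less RNA per cell cannot be told apart. The called count was 9 to 13 when each library was left out in turn.

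Basement membrane genes, which primitive endoderm cells express strongly, gave 6 falls and 3 rises among 56 tested members of the list of extracellular matrix genes. The share called was 16.1%, beside 5.96% of all genes, while the list's median log2 fold change was 0.0407. The falls included Col4a1 and Col4a2, the chains of type IV collagen, and Lama1 and Lamb1, chains of laminin. Col4a1 had 204, 173 and 206 CPM in FL and 142, 132 and 127 CPM in H373R (-0.54 ± 0.065, SE, edgeR adjusted p 0.000109). Lama1 had 206, 191 and 191 CPM in FL and 150, 136 and 123 CPM in H373R (-0.53 ± 0.065, SE, edgeR adjusted p 0.000146). Col4a2 and Lamb1 had log2 fold changes of -0.61 and -0.27. Col4a1 and Col4a2 are neighbours on chromosome 8 that point away from each other and share 22 exon bases. Lamc1, Lamb3 and Col22a1 lost their calls in 4, 5 and 8 of the fits that left out a library. Without EV untreated replicate 1 the counts were 11 lower and 5 higher, and without FL replicate 2, FL replicate 3, H373R replicate 1 or H373R replicate 3 there was 1 rise.

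Several feedback regulators of FGF and ERK signalling fell. Of 41 tested members of the list 11 were lower and 1, Fos, was higher in H373R (29.3% called, beside 5.96% of all genes). The median log2 fold change was -0.119. Spry4, an inhibitor of receptor tyrosine kinase signalling that is itself induced by ERK, had 145, 147 and 146 CPM in FL and 93.5, 92.6 and 92.3 CPM in H373R (-0.65 ± 0.041, SE, edgeR adjusted p 3.32e-07). The EV libraries had 102 to 109 CPM, so FL lay above and H373R below every one of them. Dusp6, the phosphatase that inactivates ERK, had 52.3, 52.9 and 48.4 CPM in FL and 29.3, 30.8 and 31.5 CPM in H373R, beside 24.6 to 31.3 CPM in the EV libraries (-0.74 ± 0.058, SE, edgeR adjusted p 1.59e-06).

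Spry2, a relative of Spry4, had 120, 124 and 122 CPM in FL and 102, 96.0 and 104 CPM in H373R (-0.28 ± 0.049, SE, edgeR adjusted p 0.00283). Etv5, a transcription factor downstream of ERK, had 285, 285 and 279 CPM in FL and 240, 235 and 234 CPM in H373R (-0.26 ± 0.039, SE, edgeR adjusted p 0.00101). Here the EV untreated libraries, at 326 to 335 CPM, were higher than either group. Klb, a co-receptor for endocrine FGFs, also belongs to the endoderm list. Among ligands and receptors, Fgf4 (-0.20), Fgf17 (-0.27) and Fgfr2 (-0.40) were called lower, and so were Spred1 (-0.31), Spred2 (-0.18) and Myc (-0.32). These 6 lost their calls in 1 to 9 of the fits that left out a library, the highest adjusted p being 0.132 for Fgf17 without FL replicate 2. Fos lost its call in 4, with a highest adjusted p of 0.124 without H373R replicate 3. Fgfr2 shares exon bases with a tested gene on its own strand. Etv4 and Egr1, other targets of ERK, were not called (log2 fold changes -0.05 and 0.07), and neither was Fgfr1. The count of falls was 7 without FL replicate 2, 5 without FL replicate 3, 6 without H373R replicate 2 and 7 without H373R replicate 3.

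**Figure D3:**
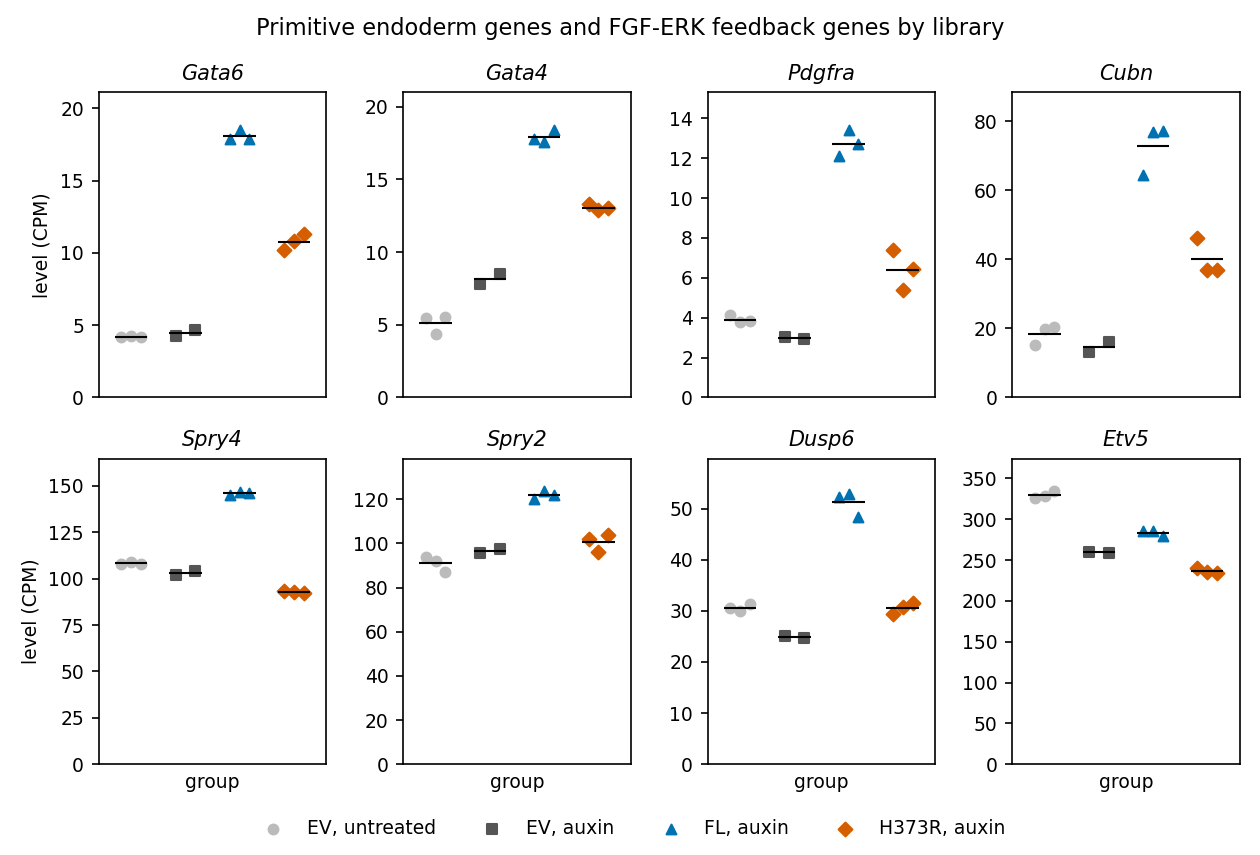
Level in CPM (vertical axis, from 0) of 4 primitive endoderm genes (top row) and 4 genes of FGF and ERK feedback (bottom row) in each library, by group, with a bar at the group mean. The FL libraries are the highest of all groups for every gene shown except Etv5, and the H373R libraries lie below them in all 8 panels.

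Markers of other cell types moved in part with these genes. Of 8 tested fibroblast markers, included because stem cells are often grown on feeder cells, 4 were lower in H373R (Acta2, Tagln, Col3a1 and Vim) and 1, Pdgfrb, was higher. The share called was 62.5%, beside 5.96% of all genes, and the median log2 fold change was -0.334. Acta2, smooth muscle actin, had 17.9, 15.6 and 14.7 CPM in FL and 9.34, 8.54 and 9.35 CPM in H373R (-0.83 ± 0.092, SE, edgeR adjusted p 6.26e-05). Col3a1, a fibrillar collagen, had 3.48, 2.43 and 3.82 CPM in FL and 1.51, 1.18 and 0.962 CPM in H373R (-1.46 ± 0.21, SE, edgeR adjusted p 0.000671). The defining fibroblast genes Col1a1 (46.1, 35.5 and 36.5 against 38.7, 33.2 and 35.5 CPM), Col1a2 and Thy1 overlapped between the groups and were not called. The summed level of the 8 markers was 296 to 332 CPM in FL, 263 to 277 CPM in H373R and 204 to 226 CPM in the EV libraries. In TPM it was 274 to 300 in FL, 234 to 248 in H373R and 183 to 202 in the EV libraries. The list held 13 markers, and those that failed the expression filter are not in these sums. Vim lost its call in 5 and Pdgfrb in 2 of the fits that left out a library, with highest adjusted p of 0.151 without H373R replicate 2 and 0.0574 without FL replicate 3. The part of any other cell type in the differences was not tested.

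Acta2 and Tagln are also targets of SRF, the factor that couples the actin cytoskeleton to transcription. In a list of immediate early genes and targets of SRF and YAP, 8 of 43 tested members were lower and 2 higher in H373R. The share called was 23.3%, beside 5.96% of all genes, with a median of -0.00755. Ccn1, a secreted YAP target, had 20.9, 19.1 and 19.4 CPM in FL and 12.2, 13.2 and 13 CPM in H373R (-0.63 ± 0.079, SE, edgeR adjusted p 0.000171), beside 10.7 to 12.6 CPM in the EV libraries. Thbs1, thrombospondin, had 15.0, 13.4 and 15.9 CPM in FL and 9.77, 10.5 and 7.89 CPM in H373R (-0.67 ± 0.11, SE, edgeR adjusted p 0.00163). Tpm1, Anxa1 and Anxa3 fell by 0.31, 0.57 and 0.42 on the log2 scale. Tagln2 went the other way, from 281, 274 and 280 CPM to 317, 340 and 337 CPM (0.25 ± 0.043, SE, edgeR adjusted p 0.00237). Tagln and Ccn2 share exon bases with a tested gene on the opposite strand. Ccn2 and Fos, the remaining calls, were lost in 3 and 4 of the fits that left out a library. The counts in these fits were 7 to 12 falls and 1 to 4 rises, with the most in both directions without EV untreated replicate 1.

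Pluripotency genes differed by small amounts. Of 33 tested core and naive pluripotency genes 4 were lower and 2 higher (18.2% called, beside 5.96% of all genes). The median log2 fold change was -0.0611. Tdh, threonine dehydrogenase, an enzyme typical of mouse embryonic stem cells, had 423, 398 and 391 CPM in FL and 329, 342 and 341 CPM in H373R (-0.26 ± 0.044, SE, edgeR adjusted p 0.00237). Dppa3, a maternal factor that protects imprints, had 12.4, 13.2 and 11.6 CPM in FL and 16.4, 15.7 and 16.4 CPM in H373R (0.39 ± 0.076, SE, edgeR adjusted p 0.00645), with 31.3 and 31.5 CPM in EV auxin. Tet2 (-0.35), Fgf4 and Zfp42 (-0.18) were the other falls and Fbxo15 (0.19) the other rise, and each of these 4 lost its call in 4 to 6 fits that left out a library. The fits without EV untreated replicate 1 gave 11 falls in this list, and those without FL replicate 2, FL replicate 3, H373R replicate 2 or H373R replicate 3 gave 1.

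Genes of the formative and primed states, through which pluripotent cells leave the naive state, gave 6 falls and 1 rise among 25 tested. The share called was 28.0%, beside 5.96% of all genes, and the median was -0.101. Dnmt3a, a de novo DNA methyltransferase, had 298, 295 and 288 CPM in FL and 232, 234 and 223 CPM in H373R (-0.35 ± 0.041, SE, edgeR adjusted p 9.01e-05), beside 232 and 234 CPM in EV auxin. H373R overlapped EV auxin and FL did not. Epha2, an ephrin receptor, fell by 0.39, Dusp6 and Etv5 are counted in this list too, and Sall2 (-0.38) lost its call in 5 of the fits that left out a library. The rise was Cldn6, a tight junction protein, from 74.6, 69.9 and 65.4 CPM to 83.7, 88.7 and 87.8 CPM (0.31 ± 0.059, SE, edgeR adjusted p 0.00489). Otx2, Fgf5 and Pou3f1, widely used markers of these states, were not called, with log2 fold changes of 0.04, -0.19 and -0.10.

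Imprinted genes, which are expressed from the maternal or the paternal copy alone, moved in both directions. Outside the Dlk1-Dio3 domain 7 of 48 tested genes were higher and 6 lower in H373R (27.1% called, beside 5.96% of all genes). The median of -0.000786 was near 0. H19, a noncoding RNA of the maternal copy (chr7:142575529-142578143, GRCm38), had 4.15, 3.49 and 5.35 CPM in FL and 8.60, 8.49 and 9.46 CPM in H373R, while EV untreated had 4.26 to 6.19 and EV auxin 3.54 and 4.73 CPM. H373R therefore lay above every other library, at a log2 fold change over FL of 1.01 ± 0.16 (SE, edgeR adjusted p 0.0015). Igf2, the growth factor gene of the paternal copy that lies upstream of H19 on the same strand (chr7:142650766-142666816), had 5.11, 3.57 and 3.52 CPM in FL and 2.50, 2.36 and 2.46 CPM in H373R (-0.76 ± 0.19, SE, edgeR adjusted p 0.0311). This call was lost without FL replicate 1 and without each H373R library, with a highest adjusted p of 0.149 without FL replicate 1, the highest of the FL values. Igf2 shares exon bases with an antisense gene.

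Peg13, a noncoding RNA of the paternal copy on chromosome 15, had 6, 5 and 5 counts in FL and 28, 30 and 28 counts in H373R. In CPM this was 0.286, 0.380 and 0.255 in FL and 1.20, 1.42 and 1.08 in H373R, against 0.110 at most in the EV libraries. The log2 fold change was 2.02 ± 0.30 (SE, edgeR adjusted p 0.000916), and at such low counts the spread is poorly known. DESeq2 and limma on log2(TPM + 1) gave no adjusted p for Peg13. Trappc9, in which Peg13 lies, had 39.1, 34.6 and 34.6 CPM in FL and 43.2, 40.3 and 38.2 CPM in H373R and was not called. Mest, a paternally expressed hydrolase gene, had 30.9, 35.8 and 29.7 CPM in FL and 46.2, 50.2 and 46.6 CPM in H373R, beside 24.5 to 28.8 CPM in the EV libraries (0.58 ± 0.069, SE, edgeR adjusted p 0.000109). Mest shares exon bases with Copg2, and Zfp264 with Zim3, on the opposite strand. Plagl1, a zinc finger gene of the paternal copy, had 2.05, 2.43 and 2.40 CPM in FL and 3.66, 4.34 and 4 CPM in H373R (0.81 ± 0.14, SE, edgeR adjusted p 0.00283), and Nnat, neuronatin, rose by 0.52 and Zfp264 by 0.56. In H19, Peg13, Mest and Plagl1 every H373R library exceeded every library of the 3 other groups.

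The falls were in Peg10, Grb10 and Zdbf2, besides Igf2, Sfmbt2 (-0.28) and Peg12 (-0.78), of which the last 2 lost their calls in 4 and 7 of the fits that left out a library. Mcts2 (0.33), the remaining rise, lost its call in 4. Peg10, a gene derived from a retrotransposon that the placenta needs, had 201, 221 and 227 CPM in FL and 170, 145 and 157 CPM in H373R (-0.46 ± 0.072, SE, edgeR adjusted p 0.00131). Grb10, an adaptor that restrains growth factor receptors, had 381, 378 and 376 CPM in FL and 320, 315 and 309 CPM in H373R (-0.27 ± 0.042, SE, edgeR adjusted p 0.00147). FL was above every EV library for both genes. Without H373R replicate 2 or H373R replicate 3 the list had 3 falls. In the Dlk1-Dio3 domain on chromosome 12 Dio3, an enzyme that inactivates thyroid hormone, was the only call among 8 tested genes. This was 12.5%, beside 5.96% of all genes. Dio3 had 4.15, 3.57 and 3.52 CPM in FL and 7.96, 8.77 and 8.81 CPM in H373R (1.17 ± 0.12, SE, edgeR adjusted p 2.2e-05), while the noncoding RNA Rian of the same domain had 51.5 to 55.3 CPM in FL and 54.8 to 55.2 CPM in H373R.

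**Figure D4:**
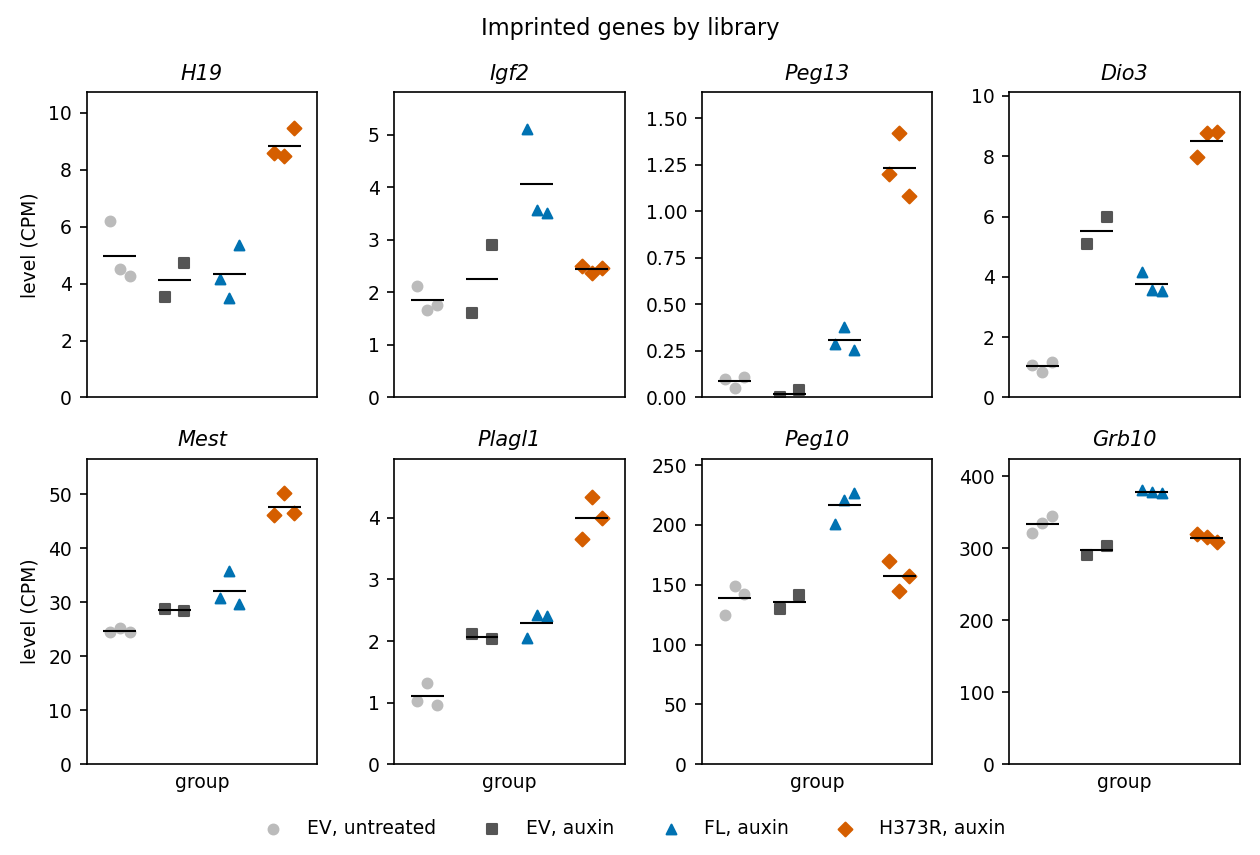
Level in CPM (vertical axis, from 0) of 8 imprinted genes in each library, by group, with a bar at the group mean. H19, Peg13, Dio3, Mest and Plagl1 are highest in the 3 H373R libraries, and Igf2, Peg10 and Grb10 are highest in the 3 FL libraries.

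Of 16 tested clustered protocadherins, cell surface proteins whose isoform promoters are selected through CTCF sites, 5 were lower and 0 higher in H373R. The share called was 31.2%, beside 5.96% of all genes, and the median log2 fold change was -1.16. All called isoforms belong to the gamma cluster on chromosome 18. Pcdhga11 had 54, 35 and 55 counts in FL and 16, 15 and 17 in H373R, or 2.58, 2.66 and 2.80 CPM against 0.688, 0.708 and 0.654 CPM. The EV untreated libraries had 3.99 to 4.16 CPM and the EV auxin libraries 0.171 and 0.415 CPM, so the levels ran in the order EV untreated, FL, H373R and EV auxin with no overlap between neighbours. Its log2 fold change was -1.97 ± 0.19 (SE, edgeR adjusted p 1.39e-05). Pcdhgb8 had 14, 13 and 20 counts in FL and 1, 5 and 1 in H373R (edgeR adjusted p 0.00148). Pcdhgb5, Pcdhga7 and Pcdhgb7 lost their calls in 4 to 6 of the fits that left out a library, and the list had 2 or 3 calls in each fit without an FL or H373R library except that without FL replicate 3. The gamma genes share their last exons, so reads may have been split between isoforms.

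The list of neuroectoderm and neural fate genes gave 7 rises and 3 falls among 42 tested (23.8% called, beside 5.96% of all genes). The median was 0.081. Of the rises only Dlx2 and Dlx3 kept their calls in every fit that left out a library, whereas all 3 falls did. The rises were led by homeobox genes: besides Dlx2 and Dlx1, Dlx3 had 17.9, 15.9 and 16.0 CPM in FL and 21.5, 23 and 22.8 CPM in H373R (0.43 ± 0.075, SE, edgeR adjusted p 0.00278). Lhx5 (1.24), Nkx6-1 (1.00), Msx2 (0.48) and the RNA-binding protein gene Elavl3 (0.36) passed the threshold but lost it in 3 to 5 of the fits that left out a library. The falls were in Sox1, Gbx2 and Neurod1. Sox1, a marker of neuroectoderm, had 23.4, 21.9 and 23 CPM in FL and 16.7, 15.9 and 15.8 CPM in H373R, beside 8.80 to 11.8 CPM in the EV libraries (-0.50 ± 0.073, SE, edgeR adjusted p 0.00074). Gbx2, a homeobox gene of the hindbrain that is also active in naive cells, had 31.2, 27.3 and 28.9 CPM in FL and 17.6, 18.2 and 18.3 CPM in H373R (-0.70 ± 0.10, SE, edgeR adjusted p 0.000789), and Neurod1 fell by 0.42. Gbx2 shares exon bases with an antisense gene and Neurod1 with a neighbour on its own strand. Pax6, Nes and Tubb3 were not called. Of transcription factors outside the list, Bhlhe23 was chosen after its values were seen and had 0.907, 1.44 and 0.765 CPM in FL and 2.45, 2.45 and 3.08 CPM in H373R (1.43 ± 0.24, SE, edgeR adjusted p 0.00248). The neural count of rises was 3 without FL replicate 1, FL replicate 2 or H373R replicate 1 and 4 without H373R replicate 3.

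The Wnt pathway was divided, with 6 rises and 5 falls among 57 tested genes (19.3% called, median -0.0149). The related Dishevelled-binding inhibitors Nkd1 and Nkd2 moved in opposite directions. Nkd1 had 13.1, 12.2 and 12 CPM in FL and 19.1, 19.4 and 19 CPM in H373R, the level of EV auxin (19.2 and 19.3 CPM). The difference from FL was 0.62 ± 0.075 on the log2 scale (SE, edgeR adjusted p 0.000133). Nkd2 had 1.19, 1.90 and 1.94 CPM in FL and 0.258, 0.141 and 0.346 CPM in H373R (-2.66 ± 0.31, SE). Secreted inhibitors were divided as well. Sfrp5 had 9.40, 9.19 and 10.3 CPM in FL and 16.1, 16.9 and 18 CPM in H373R (0.81 ± 0.10, SE, edgeR adjusted p 0.000169), whereas Dkk1 had 2.24, 1.29 and 2.04 CPM in FL and 0.602, 0.943 and 0.769 CPM in H373R (-1.32 ± 0.26, SE, edgeR adjusted p 0.00669). The ligand Wnt7b rose by 0.61. T, the brachyury gene and a Wnt target of the primitive streak, had 3.72, 2.43 and 3.62 CPM in FL and 1.38, 1.32 and 1.77 CPM in H373R (-1.15 ± 0.22, SE, edgeR adjusted p 0.00487), slightly above the 0.441 to 1.20 CPM of the EV libraries. Wnt5a, Fzd4 and Fzd5 were called lower too, and lost their calls in 5, 8 and 4 of the fits that left out a library. The falls of the Wnt list were 2 without FL replicate 1, FL replicate 2, H373R replicate 2 or H373R replicate 3. Of 31 tested genes of the primitive streak and mesoderm 2 were higher and 1 lower (9.68% called, beside 5.96% of all genes, median 0.00946). That list had 0 rises without FL replicate 3, H373R replicate 2 or H373R replicate 3, and 3 falls without EV untreated replicate 1.

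Genes for 3 claudins of tight junctions and 1 keratin were higher in H373R, within a list of 24 trophoblast and epithelial genes. The list gave 4 rises and 4 falls (33.3% called, beside 5.96% of all genes, median 0.165). Cldn4 had 92.6, 78.0 and 81.2 CPM in FL and 117, 118 and 121 CPM in H373R (0.50 ± 0.075, SE, edgeR adjusted p 0.000972). Cldn7 had 27.8, 25.1 and 25.8 CPM in FL and 36.7, 38.1 and 38.9 CPM in H373R (0.53 ± 0.090, SE, edgeR adjusted p 0.00236), and Krt19, a keratin, 56.2, 46.2 and 49.6 against 67.1, 69.6 and 74.5 CPM (0.47 ± 0.090, SE, edgeR adjusted p 0.00505). With Cldn6 these were the 4 rises. The falls were Cdx2, Fgfr2, Esx1 and Krt8, all of which lost their calls in at least 2 fits that left out a library. Without EV untreated replicate 1 the list had 10 rises. It had 0 falls without FL replicate 3 and 1 without FL replicate 1 or any H373R library.

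Germline genes gave 6 rises and 4 falls among 55 tested (18.2% called, beside 5.96% of all genes, median 0.103). Tdrd12, a helicase of the piRNA pathway, which silences transposons, had 13.6, 13.9 and 12.8 CPM in FL and 7.92, 7.55 and 7.85 CPM in H373R, below the 9.75 CPM of both EV auxin libraries (-0.78 ± 0.079, SE, edgeR adjusted p 2.49e-05). Mael, another piRNA factor, went the other way, from 72.7, 81.0 and 76.1 CPM to 105, 108 and 110 CPM (0.49 ± 0.058, SE, edgeR adjusted p 0.000105). Sohlh2, a germ cell transcription factor, had 44.2, 45.5 and 43.9 CPM in FL and 57.3, 62.1 and 60.7 CPM in H373R (0.43 ± 0.059, SE, edgeR adjusted p 0.000416). Rhox5, a homeobox gene of the X chromosome, fell from 73.0, 75.2 and 71.3 CPM to 57.2, 53.3 and 56.5 CPM (-0.39 ± 0.052, SE, edgeR adjusted p 0.000268). Without EV untreated replicate 1 the list had 12 rises, and without an FL or H373R library it had 3 to 5.

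Among guidance molecules of axons, 7 of 76 tested genes were higher and 4 lower (14.5% called, beside 5.96% of all genes, median 0.0445). Nrp2, a semaphorin co-receptor, had 60.3, 58.7 and 62.4 CPM in FL and 82.3, 77.5 and 74.9 CPM in H373R (0.37 ± 0.052, SE, edgeR adjusted p 0.000525), and the secreted repellent Slit3 had 13.5, 10.6 and 12.1 against 18.5, 18.4 and 16.5 CPM (0.55 ± 0.10, SE, edgeR adjusted p 0.0038). Ntn1, netrin, had 28.7, 18.8 and 24.0 CPM in FL and 15.9, 14.4 and 16.1 CPM in H373R (-0.64 ± 0.12, SE, edgeR adjusted p 0.00369), and Epha4 fell by 0.29. The rises numbered 14 without EV untreated replicate 1 and 2 to 6 without an FL or H373R library, the fewest without H373R replicate 2. Of 126 ion channel genes 6 were called, 3 in either direction. This share of 4.76% was below the 5.96% of all genes. The channel rises numbered 13 without EV untreated replicate 1, 5 without EV untreated replicate 2 or FL replicate 1, and 1 without either EV auxin library, FL replicate 3 or H373R replicate 1, while the falls stayed at 3 in each of the 11 fits that left out a library.

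Of the 10 most abundant called genes without overlap 8 were lower in H373R. L1td1, an RNA-binding protein of stem cells derived from a LINE-1 element, had 817, 867 and 854 CPM in FL and 690, 664 and 644 CPM in H373R (-0.35 ± 0.048, SE, edgeR adjusted p 0.000434), with 766 to 867 CPM in the EV libraries. H373R was thus below every other library. Slc2a1, the glucose transporter GLUT1, had 1400, 1330 and 1300 CPM in FL and 1140, 1140 and 1100 CPM in H373R (-0.25 ± 0.046, SE, edgeR adjusted p 0.00387), and Mkrn1, a ubiquitin ligase, fell by 0.20. The 2 rises were Upp1, uridine phosphorylase, at 0.22, and Pfkp, a phosphofructokinase of glycolysis, with 662, 651 and 657 CPM in FL and 794, 782 and 777 CPM in H373R (0.26 ± 0.039, SE, edgeR adjusted p 0.000972). Hspd1, Rplp0, Hnrnpab, Scd2 and Hnrnpu, the other 5 falls, lost their calls in 5 to 7 of the fits that left out a library, with highest adjusted p of 0.101 to 0.162. Exons of Pfkp, Mkrn1, Hspd1, Hnrnpab and Hnrnpu overlap those of a tested gene on the opposite strand, so their values are less certain.

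Of 88 tested genes for ribosomal proteins 79 had a negative log2 fold change (median -0.0939), beside 8109 of all 16420 tested genes. Signs of genes measured in the same libraries are not independent. Of the 88, 1 was called higher and 1 lower (2.27%, beside 5.96% of all genes). The falls numbered 8 without EV untreated replicate 1, and 0 without EV auxin replicate 1, FL replicate 1, FL replicate 2 or any H373R library. The rises numbered 0 without FL replicate 1, FL replicate 3, H373R replicate 1 or H373R replicate 3. Gm42418 was the 1 called gene whose groups overlapped, with 1600, 1140 and 1930 CPM in FL and 1150, 996 and 1030 CPM in H373R (-0.56 ± 0.13, SE, edgeR adjusted p 0.0154). It shares 1822 exon bases with a tested gene on the opposite strand, its level was 749 to 857 CPM in the EV libraries, and the gene lost its call in 3 of the fits that left out a library, with a highest adjusted p of 0.0832 without FL replicate 3. Of 37 genes for CTCF, cohesin and its loaders 3 were called (8.11%, beside 5.96% of all genes), all higher. These were the meiotic cohesin subunits Stag3 (0.25) and Smc1b (0.37) and the loader subunit Mau2 (0.23). Each lost its call in 2 to 7 of the fits that left out a library, and without H373R replicate 2 the list had 0 calls. Rad21, Smc1a, Smc3 and Nipbl, the core ring and its main loader, had log2 fold changes of -0.13 to -0.07. Among 49 helicases and other proteins that bind G-quadruplexes, the stacked four-stranded structures of guanine-rich DNA that the series title names as CTCF targets, 0 were higher and 3 lower (6.12% called). These were Srsf1, Sub1 and Pot1b, and edgeR called none of the list without FL replicate 2, FL replicate 3 or any H373R library, and 9 falls and 1 rise without EV untreated replicate 1.

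Of 38 p53 targets 4 were called (10.5%, beside 5.96% of all genes), 3 higher and 1 lower, with a median of 0.0169. These counts were 6 and 3 without EV untreated replicate 1, and without FL replicate 2, FL replicate 3 or H373R replicate 2 there were 0 falls. Ephx1, an epoxide hydrolase, and Ddit4l, an inhibitor of mTORC1, were higher by 0.49 and 0.46. Of 375 tested zinc finger genes with the name Zfp 12 were called (3.2%). A negative log2 fold change was found for 252 of the 375, beside 8109 of all 16420 tested genes. The fit without EV untreated replicate 1 called 46 lower and 8 higher.

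**Figure D5:**
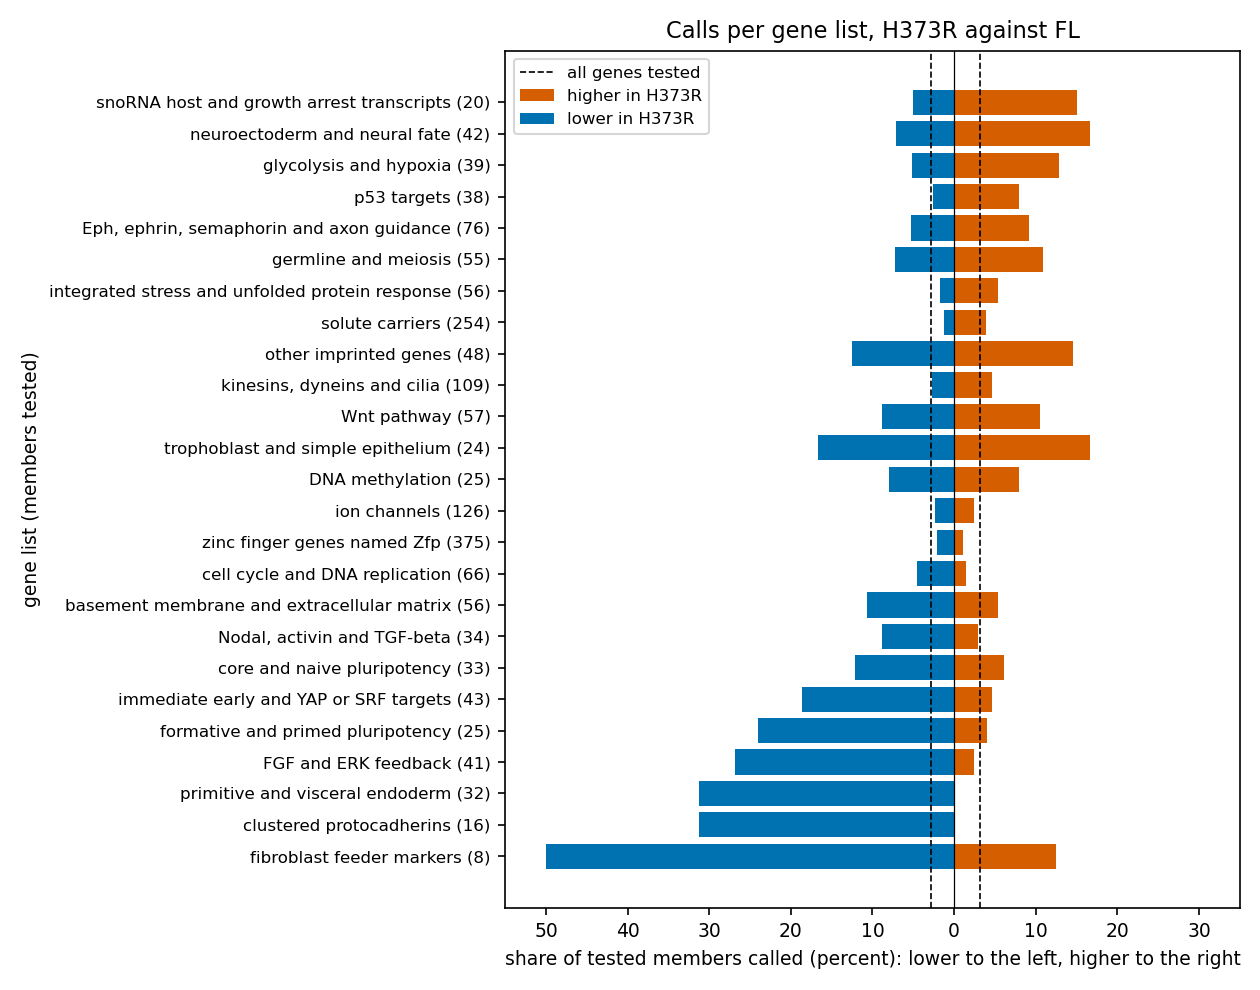
Share of the tested members of each gene list that was called lower (left, blue) or higher (right, orange) in H373R than in FL, in percent, for the 25 lists with at least 4 calls, with the number of members tested in brackets. Dashed lines mark the shares over all genes tested, 2.82% lower and 3.14% higher; protocadherin, endoderm and FGF and ERK lists extend furthest to the left after the 8 fibroblast markers.

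Promoters of called genes were compared by their sequence. RefSeq promoter windows of the build GRCm38.p6, from 250 bases before to 50 after a gene's start, were matched by symbol to 11769 of the 16420 tested genes. The CTCF core was searched on both strands as CCANNAGNNGGC, a reduced form of its motif with N at the variable positions. It occurred in 26 of 348 promoters of genes lower in H373R (7.47%), in 12 of 376 of genes higher in H373R (3.19%) and in 400 of all 11769 (3.4%). Among genes lower by at least 2-fold it was present in 4 of 40 (10%), and among those higher by at least 2-fold in 0 of 16. The 4 windows are shown because they are the places where the pattern and a fall of at least 2-fold coincide. None of the 12 largest falls named above is among these 4 genes. Each is given 5′ to 3′ on the strand of the gene from the part before the gene's start, with the match in capitals.
Dennd6b: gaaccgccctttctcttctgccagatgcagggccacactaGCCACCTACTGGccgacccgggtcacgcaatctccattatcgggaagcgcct
Abhd14b: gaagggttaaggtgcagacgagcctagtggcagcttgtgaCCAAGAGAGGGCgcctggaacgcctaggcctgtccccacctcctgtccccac
Nudt17: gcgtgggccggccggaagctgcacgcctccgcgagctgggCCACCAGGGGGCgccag
Rsad1: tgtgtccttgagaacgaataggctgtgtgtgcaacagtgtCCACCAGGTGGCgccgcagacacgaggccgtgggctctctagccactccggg

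They lie at chr15:89196603-89196694 (Dennd6b, minus strand, match on the other strand), chr9:106448545-106448636 (Abhd14b, plus strand), chr3:96708561-96708617 (Nudt17, minus strand) and chr11:94549248-94549339 (Rsad1, minus strand). Dennd6b had 1.1, 1.06 and 1.17 CPM in FL and 0.387, 0.0472 and 0.231 CPM in H373R, beside 4.36 to 5.23 CPM in EV untreated (-2.27 ± 0.37, SE, edgeR adjusted p 0.00156). Rsad1 had 5.96, 4.94 and 6.02 CPM in FL and 2.93, 2.12 and 2.77 CPM in H373R, beside 6.61 to 6.76 CPM in EV untreated and 2.05 and 2.37 CPM in EV auxin (-1.12 ± 0.13, SE, edgeR adjusted p 0.000109). H373R was below both EV auxin libraries for Dennd6b and Abhd14b and overlapped them for Nudt17 and Rsad1. EV untreated was above FL for all but Nudt17, whose highest FL library overlapped. Abhd14b (-1.22 ± 0.27, SE) and Nudt17 (-1.12 ± 0.30, SE) lost their calls in 2 and 5 of the fits that left out a library, with highest adjusted p of 0.085 without FL replicate 2 and 0.209 without FL replicate 1. Nudt17 shares 4 exon bases with Pias3 on the opposite strand. Abhd14b shares exon bases with Abhd14a on the opposite strand. These 4 genes were chosen after their values were seen. Binding of CTCF to these windows was not analysed here.

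G-quadruplex patterns were nearly as frequent in promoters of genes that changed in either direction. The pattern, 4 runs of at least 3 G separated by 1 to 7 bases on either strand, occurred in 36.8% of promoters of genes lower in H373R, 35.9% of those higher and 31.9% of all. Among genes that changed at least 2-fold it was less frequent in both directions, in 6 of 40 with a fall (15.0%) and 4 of 16 with a rise (25.0%). On the strand of the gene it was in 21.8%, 20.2% and 18.5%, and on the other strand in 20.1%, 19.9% and 16.8%. Windows rich in CpG made up 74.4% of promoters of lower genes and 55.3% of those of higher genes, against 69.1% of all. The median GC content of transcripts was 49.3% for lower and 53.6% for higher genes, against 50.2% for all. Pdgfra and Lgr6 are shown as examples of the pattern from a fall and from a rise described above, with the cytosine runs opposite the G runs in capitals, since the match is on the strand opposite to the gene.
Pdgfra: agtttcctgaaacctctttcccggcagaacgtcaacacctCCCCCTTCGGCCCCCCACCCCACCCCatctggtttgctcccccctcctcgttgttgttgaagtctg
Lgr6: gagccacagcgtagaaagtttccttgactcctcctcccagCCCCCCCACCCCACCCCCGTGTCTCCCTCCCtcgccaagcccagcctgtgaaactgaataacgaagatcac

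These windows are at chr5:75152004-75152109 (Pdgfra, plus strand) and chr1:135105342-135105452 (Lgr6, minus strand), and all motif matches are descriptions of letters, not of binding or of folded structures.

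Called genes lay beside each other in 83 of 16193 neighbouring pairs of tested genes. In 34 of these both were higher, in 23 both lower and in 26 they moved in opposite directions, and 8.56% of the neighbours of called genes were called, beside 5.98% of the genes placed on the map. Opposite changes occurred in H19 and Igf2 and at Gfm1 and Lxn on chromosome 3. Gfm1, a mitochondrial elongation factor, had 105, 116 and 109 CPM in FL and 60.5, 61.2 and 58.0 CPM in H373R, with 139 to 160 CPM in EV untreated (-0.88 ± 0.059, SE, edgeR adjusted p 4.47e-07). Lxn, latexin, an inhibitor of carboxypeptidases that lies within Gfm1 on the opposite strand, had 7.83, 6.91 and 6.07 CPM in FL and 12.4, 13.8 and 12.8 CPM in H373R, with 2.66 to 3.03 CPM in EV untreated (0.90 ± 0.098, SE, edgeR adjusted p 5.47e-05). In EV auxin Gfm1 had 57.7 and 57.0 CPM and Lxn 12.2 and 12.7 CPM, so FL lay between the EV groups for both, and H373R was much nearer to EV auxin. The genes share 63 exon bases, which without counting by strand could place reads of either gene under both, and their values moved apart. Nle1, a ribosome assembly factor on chromosome 11, fell from 40.8, 31.0 and 37.0 CPM to 16.9, 17.7 and 19.2 CPM (-1.02 ± 0.11, SE, edgeR adjusted p 4.86e-05), while its neighbour Rad51d, a DNA repair gene, had 21.7, 20.7 and 20.5 against 27.3, 23 and 26.1 CPM, a call that was lost in 7 of the fits that left out a library (highest adjusted p 0.166 without H373R replicate 1). By chromosome the share called ran from 4.57% on chromosome 13 to 7.92% on chromosome 7, where 68 genes were lower and 35 higher.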

How the data were processed

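RNA was measured with a directional kit on a NovaSeq, per the labels' protocols. The deposited table of raw counts per gene was made by the authors with featureCounts (Subread 2.0.3) on mm10/GRCm38, per the submitters' processing notes, which also name DESeq2. The aligner and the use of strand are not given in the sources used here. The authors also deposited TPM per gene.

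Counts of 11 libraries in 4 groups (3 EV untreated, 2 EV auxin, 3 FL, 3 H373R) were fitted with edgeR 4.0.16 in R 4.3.3 (quasi-likelihood test, TMM scaling, filterByExpr, group means, shared spread), and 16420 genes were tested with Benjamini-Hochberg adjustment. The common biological coefficient of variation was 0.0578. On simulated counts for H373R against FL over 16420 genes, edgeR found 82% of 200 genes changed 2-fold and made 11 false calls. Alternatives were DESeq2 1.42.0, limma 3.58.1 on log2(TPM + pseudocount), other scalings, filters and thresholds, GC and length trends removed, thinned counts, a replicate block and leaving out each library. Coordinates, overlaps, GC content and length came from GENCODE M21 gene models (GRCm38), and promoters from RefSeq (GRCm38.p6). Windows were called CpG-rich at a GC content of at least 50% and an observed-to-expected CpG ratio of at least 0.6.

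The comparison and the 46 gene lists were chosen with earlier results of these data known. Named were Ctcf, the 12 largest rises and falls without overlap at a mean log2 CPM of at least 1, the 10 most abundant called genes, and up to 4 called and 3 uncalled members of each list. Further members of described lists, and neighbours, were named after their values were seen. Some members of the lists are counted but not reported here by name.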

Additional observations from a re-analysis of the deposited data

How the results depend on the processing

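The direction of all 251 named called genes was kept in 26 alternatives, which was largely set in advance because they were called in these same libraries. The alternatives with a stricter adjusted p or a minimum fold change reuse the main fit, so no direction could change there. Of the 251, 28 passed the threshold in each alternative that tested them. This number depends mostly on size, since 205 did not reach a log2 fold change of at least 1. The total of 979 calls became 1815 with only the 6 libraries compared, 2236 with GC content and length trends removed, 588 with limma on log2(TPM + 1) without a filter, 436 at an adjusted p under 0.01 and 78 at a log2 fold change of at least 1. The 516 rises became 940, 975, 365, 207 and 28 in the same order. The 463 falls became 875, 1261, 223, 229 and 50, and 297 and 286 with limma on log2(TPM + 1) and log2(TPM + 0.1). Leaving out 1 library in turn gave 510 to 2323 calls, 237 to 1054 rises and 257 to 1269 falls, the most without EV untreated replicate 1. DESeq2 called 897 genes, and 784 were called on counts thinned to the smallest total. The cause of these differences was not tested.

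With the replicate block 942 genes were called (496 higher, 446 lower), of which 884 were among the 979. No pairing by replicate number was seen: same-numbered FL and H373R libraries deviated together with r of -0.0198, 0.027 and -0.0158, and not every library correlated best with its own number. Deviations from the mean of 3 libraries constrain one another, so these r cannot show whether same-numbered libraries were prepared together. Depth limits genes under about 1 CPM most, such as Peg13, Dlx1 and Pcdhgb8. With 3 libraries a group, single libraries weigh heavily, as the ranges above show.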

Other observations

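Secreted regulators of Nodal, activin and TGF-beta signalling differed in both directions, with 3 falls and 1 rise among 34 tested genes. The share called by edgeR was 11.8%, beside 5.96% of all genes. Pcsk6, a convertase that activates Nodal, had 114, 110 and 108 CPM in FL and 84.6, 81.2 and 80.5 CPM in H373R (log2 fold change -0.43 ± 0.052, SE, edgeR adjusted p 0.000132). Inhbb, an activin subunit, had 186, 162 and 173 CPM in FL and 134, 126 and 138 CPM in H373R, the lowest of all groups (-0.39 ± 0.07, SE). Fstl1, a secreted follistatin relative, fell by 0.27, and Fstl3, an activin antagonist, had 5.15, 5.32 and 4.39 CPM in FL and 7.96, 7.36 and 7.5 CPM in H373R (0.63 ± 0.11, SE). Without EV untreated replicate 1 the list had 7 falls.

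The enzymes Cbs and Cth, which act in succession in the synthesis of cysteine, moved in opposite directions. Cbs had 57.7, 50.3 and 51 CPM in FL and 77.1, 74 and 71.9 CPM in H373R (0.48 ± 0.082, SE, edgeR adjusted p 0.00219), and Cth had 79.9, 84.4 and 78.3 CPM in FL and 58.6, 64.8 and 66.4 CPM in H373R (-0.35 ± 0.059, SE, edgeR adjusted p 0.00217). Snhg17 and Snhg1, both host transcripts of small nucleolar RNAs, also went apart: Snhg17 had 7.3, 6.99 and 8.26 CPM in FL and 4.3, 3.91 and 4.12 CPM in H373R, and Snhg1 had 34.3, 35.8 and 37.7 CPM in FL and 43.2, 45 and 45.6 CPM in H373R. EV untreated was above both for either gene.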
